A study of Mus musculus with 48 samples.

Results

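The liver-enriched transcription factor genes Hnf4a, Nr5a2, Foxa1, Foxa2, Foxa3, Cebpa, Cebpb, Onecut1 and Prox1, were followed through the livers of 48 FCG mice fed a high-fat diet (HFD). They were chosen by symbol as hepatocyte-enriched regulators, each matched 1 Ensembl identifier, and together they are 9 of the 55414 rows of the count table. All 9 passed the filter on low counts that left 15575 tested genes. The FCG model, with its 4 core genotypes, separates gonads from sex chromosomes on the C57BL/6 background: Sry, the gene that starts testis formation, is deleted from the Y chromosome (written XY-) and returned as an autosomal transgene (SryTg). Mice of genotype XX and XY- therefore carry ovaries (XX Ov and XY Ov here), and mice of genotype XX;SryTg and XY-;SryTg carry testes (XX Te and XY Te). In each genotype 6 mice kept their gonads (Intact) and 6 were gonadectomized (GDX) at 75 days of age, which gave 8 groups of 6 mice, each mouse an animal with its own identifier and 1 RNA-seq library of whole liver. The HFD took 60% of its calories from fat and began at 15 to 17 weeks of age in every group, so there was no other diet for comparison. By the sample labels it lasted 11 weeks in Intact and 15 weeks in GDX mice (the study's methods give slightly different lengths). Since the diet began at the same ages, GDX mice were also older when it ended. The study's methods also name Intact and GDX mice as separate cohorts. Gonadectomy, cohort and its handling, time on diet and age at its end cannot be told apart in any Intact against GDX comparison. The transgene is present in every Te mouse and in no Ov mouse, so testes and transgene cannot be told apart either.

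Hepatocyte identity rests on a small set of transcription factors that bind each other's promoters and enhancers. Forkhead proteins of the FOXA family open compact chromatin so that other factors can bind, and the nuclear receptor HNF4A, with the C/EBP and ONECUT proteins, then drives genes for plasma proteins, clotting factors, lipoproteins and bile acid synthesis. PROX1 and the nuclear receptor NR5A2 (LRH-1) act on the same bile acid genes, PROX1 largely as a corepressor and NR5A2 as an activator.

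Promoters of 4 members are printed, a choice made after the values were seen: Foxa2 and Foxa3 were called in opposite directions after both gonadectomies, and Hnf4a and Foxa1 were called together between gonads. The RefSeq promoter table (build GRCm38.p6, 250 bases before to 50 after each start) held 14 entries for the 9 members. Each is read 5′ to 3′ on the strand of the gene, with 2 motifs in capitals where they occurred: the CCAAT box (CCAAT, or ATTGG on the other strand) and a forkhead motif (GTAAACA or TGTTTAC). These letters do not overlap each other. Foxa2 is shown at its most upstream start, chr2:148046920-148047219, minus strand, Foxa3 at chr7:19023490-19023789, minus strand, and Foxa1 at chr12:57546062-57546361, minus strand. Hnf4a is shown at both of its starts, the upstream one at chr2:163506607-163506906 and the downstream one at chr2:163546905-163547204, both on the plus strand. The gene-level counts add transcripts from both starts.
Foxa2: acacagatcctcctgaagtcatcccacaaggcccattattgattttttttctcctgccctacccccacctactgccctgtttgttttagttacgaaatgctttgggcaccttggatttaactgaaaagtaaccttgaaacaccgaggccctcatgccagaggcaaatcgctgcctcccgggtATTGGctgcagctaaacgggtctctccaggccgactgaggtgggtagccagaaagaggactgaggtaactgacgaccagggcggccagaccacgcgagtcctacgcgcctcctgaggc
Foxa3: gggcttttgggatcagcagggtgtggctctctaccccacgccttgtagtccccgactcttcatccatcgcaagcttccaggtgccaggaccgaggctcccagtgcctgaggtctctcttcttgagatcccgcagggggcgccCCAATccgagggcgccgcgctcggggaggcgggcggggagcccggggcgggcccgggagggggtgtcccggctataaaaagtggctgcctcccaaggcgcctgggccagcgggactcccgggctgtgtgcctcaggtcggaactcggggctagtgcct
Foxa1: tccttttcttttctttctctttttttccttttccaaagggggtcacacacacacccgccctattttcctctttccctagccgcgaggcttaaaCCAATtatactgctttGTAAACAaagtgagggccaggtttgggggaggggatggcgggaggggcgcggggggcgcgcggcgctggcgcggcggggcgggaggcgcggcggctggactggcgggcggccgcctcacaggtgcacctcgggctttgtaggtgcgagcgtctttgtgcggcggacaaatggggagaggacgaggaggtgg
Hnf4a, upstream start: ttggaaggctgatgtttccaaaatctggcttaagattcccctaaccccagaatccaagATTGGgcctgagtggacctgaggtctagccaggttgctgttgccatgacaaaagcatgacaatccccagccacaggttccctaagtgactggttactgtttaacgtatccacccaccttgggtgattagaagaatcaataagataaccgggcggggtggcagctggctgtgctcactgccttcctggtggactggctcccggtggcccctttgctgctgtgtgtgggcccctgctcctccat
Hnf4a, downstream start: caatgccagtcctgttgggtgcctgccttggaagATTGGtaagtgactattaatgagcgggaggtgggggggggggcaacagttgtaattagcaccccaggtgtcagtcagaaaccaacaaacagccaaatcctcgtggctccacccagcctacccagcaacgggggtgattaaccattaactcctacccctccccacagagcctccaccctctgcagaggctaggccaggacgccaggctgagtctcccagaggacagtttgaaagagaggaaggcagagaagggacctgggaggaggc

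All 5 printed windows hold a CCAAT box, 68 bases before the start in Foxa2, 108 in Foxa3, 157 in Foxa1 and 192 and 216 in the upstream and downstream windows of Hnf4a. Among all 32851 promoters of this RefSeq set, 37.4% hold one on either strand. The forkhead motif stands 141 bases before the Foxa1 start, and 3.65% of all promoters hold it. Of the 14 member windows 7 hold a CCAAT box, among them only the printed 1 of the 3 Foxa2 windows, and the Cebpa, Cebpb and Onecut1 windows hold none. These matches are letters in a window and say nothing of binding in these livers.

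The libraries held 13071874 to 20045141 reads on genes (median 16577748), so that 3 reads correspond to 0.150 to 0.230 counts per 1000000 gene reads (CPM). Xist and 4 Y-linked genes separated the libraries labelled XX from those labelled XY without overlap. All 14 hepatocyte markers were detected in every mouse, with albumin (Alb) at 47891 to 118490 CPM, whereas the duct markers Krt19 and Krt7 reached at most 1.25 and 1.31 CPM and the pancreatic lipase gene Pnlip had no read. Other markers of those cells were read in all 47 mice, the duct markers Spp1 at 6.58 to 132 CPM and Sox9 at 0.800 to 7.46 CPM and the pancreatic marker Cela1 at 3.77 to 41.0 CPM. Reads outside genes made up 3.47 to 6.20% in Intact and 8.52 to 11.3% in GDX libraries, a difference without overlap that runs with gonadectomy, and its part in the results was not tested. In bulk liver, fewer cells of a type and less RNA per cell cannot be told apart. Levels below are CPM after scaling by the trimmed mean of M values (TMM). All tests are of edgeR's quasi-likelihood method with Benjamini-Hochberg adjustment over the 15575 genes, and a gene is called at an adjusted p under 0.05. The tests and summaries use 47 mice, and 1 XX Te Intact mouse entered an alternative.

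Set against exon length (CPM per kilobase of exon, GENCODE vM1 gene models), Cebpa was the most abundant member at 107 ± 16.0 (SD, n = 47) and Hnf4a followed at 91.1 ± 19.9. CEBPA sustains gluconeogenic and lipid genes of the adult hepatocyte, and HNF4A is a nuclear receptor that drives genes for plasma proteins and clotting factors. Prox1 stood at 42.0 ± 10.7, Nr5a2 at 20.9 ± 2.51 and Cebpb, a factor of the acute phase and fasting response, at 17.9 ± 3.62 CPM per kilobase. The forkhead genes were lower, Foxa3 at 14.4 ± 5.32, Foxa2 at 9.22 ± 2.52 and Foxa1 at 5.32 ± 1.25. Onecut1 (HNF6), a cut-homeodomain factor of hepatocyte and duct development, was lowest at 5.0 ± 3.58 CPM per kilobase. Within single livers and per kilobase, Hnf4a was above Prox1, Prox1 above Nr5a2 and Foxa2 above Foxa1 in all 47 mice. The order of Foxa2 and Foxa1 rests on the exon lengths. In reads alone, the log2 ratio of Foxa1 to Foxa2 in Te Intact mice had a median of 0.03 and a highest value of 0.42. The other neighbours crossed: Cebpa was above Hnf4a in 40 mice, Nr5a2 above Cebpb in 35, Cebpb above Foxa3 in 36, Foxa3 above Foxa2 in 39 and Foxa1 above Onecut1 in 34. Relative to its mean, Onecut1 varied most and Nr5a2 least.

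**Figure D1:**
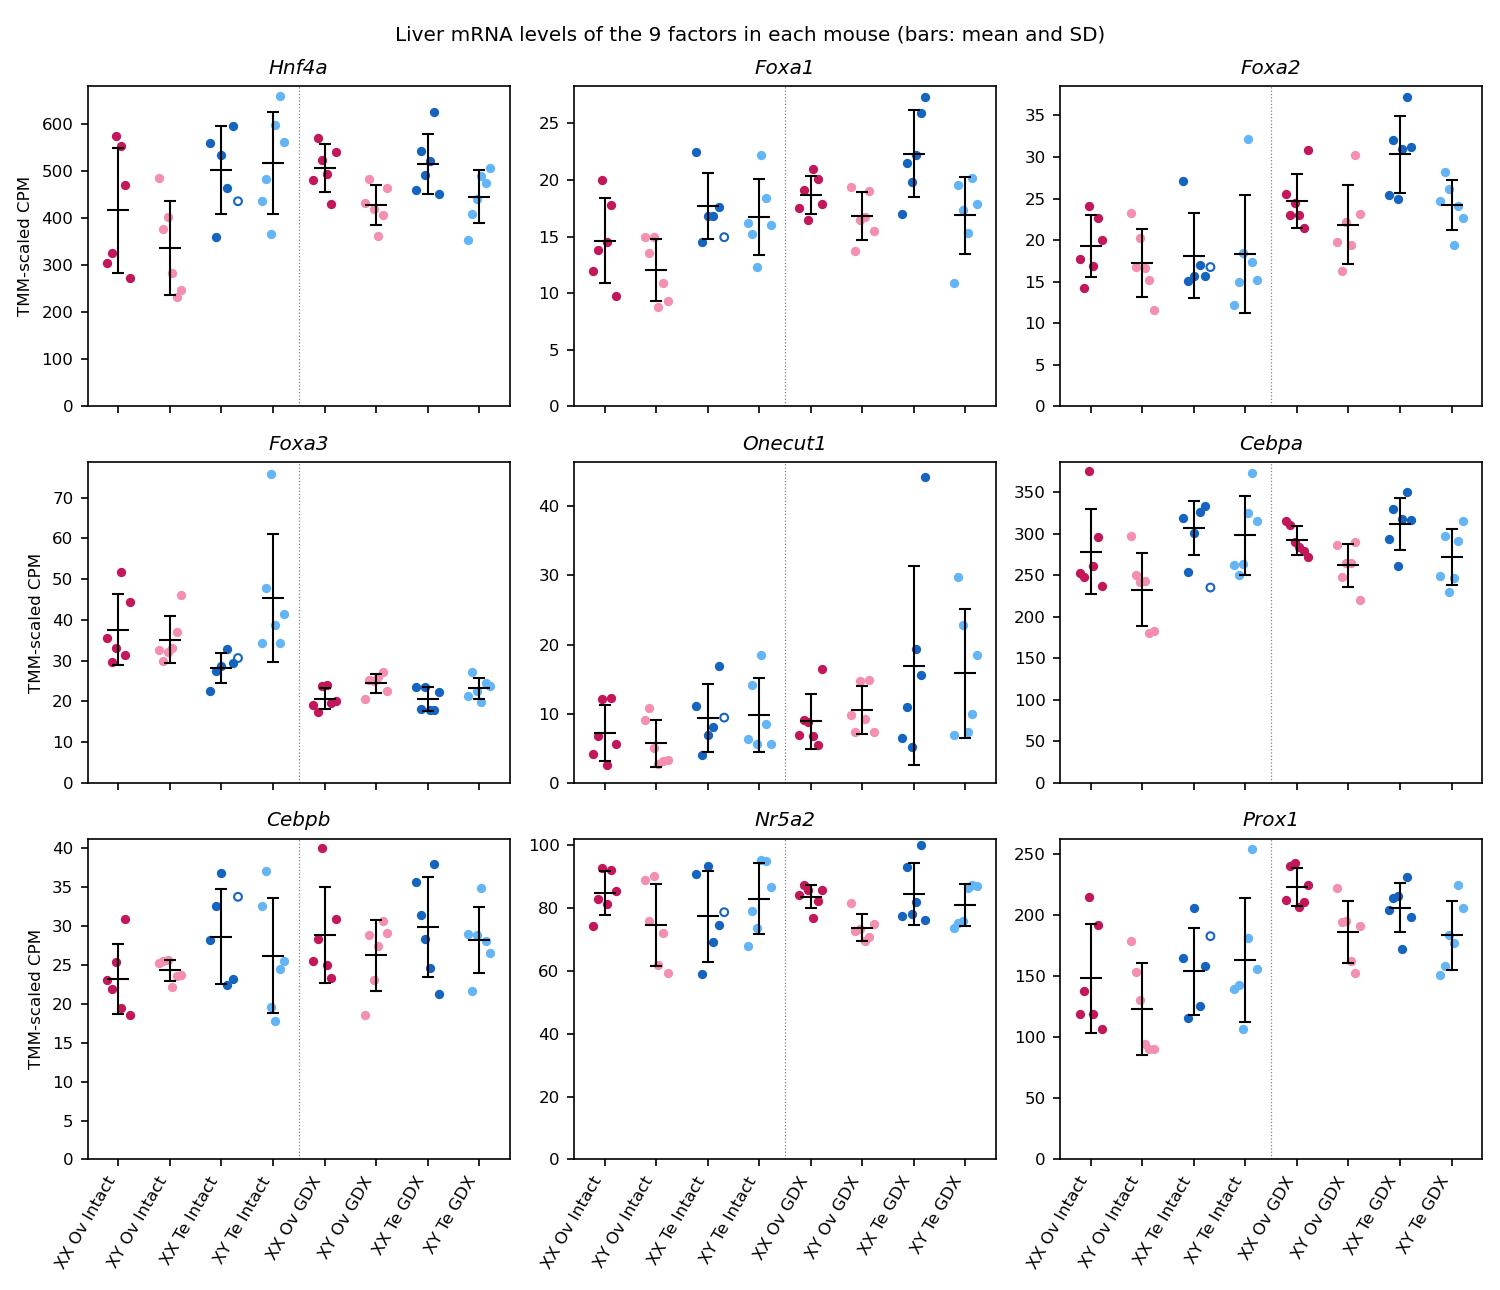
Levels of the 9 transcription factors (TMM-scaled CPM, 1 point per mouse, bars mean and SD) in the 8 groups, Intact left and GDX right of the dotted line, with the mouse outside the main fit as an open symbol. Foxa3 lies at 22.6 to 75.7 CPM in Intact and 17.5 to 27.3 CPM in GDX mice, while Nr5a2 lies within 59.0 to 99.9 CPM throughout.

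The ovariectomy effect (Ov GDX minus Ov Intact, 12 mice each) asks how the network differs when ovaries are absent. Of the 9 members 5 were called, 4 of them higher after ovariectomy (Prox1, Foxa1, Foxa2 and Hnf4a) and Foxa3 lower. Of all tested genes 69.1% were called, 35.9% higher and 33.2% lower, so a count of 5 in 9 is no larger than the share among genes at large. The median log2 fold change was 0.31 over the members and 0.06 over all tested genes. The same Intact mice enter the ovariectomy, castration and gonadal effects, so a member's values in them are set side by side and are not separate evidence.

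Foxa3, the forkhead member expressed latest in liver development, had the smallest adjusted p of the 9. The 12 Ov Intact mice ranged from 29.6 to 51.8 CPM (median 33.1) and the 12 Ov GDX mice from 17.5 to 27.2 CPM (median 23.2). The lowest Intact mouse was above the highest GDX mouse, and how many of all tested genes separate in this way is not given here. The level after ovariectomy was 0.618 of that in Intact mice (95% interval of the log2 fold change -0.90 to -0.49, SE 0.10, adjusted p = 1.955e-07). Foxa1 and Foxa2 went the other way. Foxa1 lay at 8.82, 13.7 and 20.0 CPM (lowest, median, highest) in Ov Intact and at 13.8, 17.7 and 21.0 CPM in Ov GDX mice, with 6 Intact mice below every GDX mouse. Its log2 fold change was 0.41 (SE 0.11, adjusted p = 0.00123). Foxa2 lay at 11.6, 17.3 and 24.2 CPM in Ov Intact and at 16.3, 23.1 and 30.8 CPM in Ov GDX mice. These ranges overlapped, with 4 GDX mice above every Intact mouse, and the log2 fold change was 0.34 (SE 0.12, adjusted p = 0.0138).

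Prox1, the homeodomain corepressor, had the largest increase among the called members. It lay at 90.2, 125 and 215 CPM in Ov Intact and at 152, 209 and 242 CPM in Ov GDX mice. Of the 12 Intact mice 8 were below every GDX mouse (log2 fold change 0.59, SE 0.12, adjusted p = 6.29e-05). Hnf4a lay at 231, 350 and 573 CPM in Ov Intact and at 362, 472 and 571 CPM in Ov GDX mice. Below every GDX mouse were 6 Intact mice, but the highest value of all was an Intact one (log2 fold change 0.31, SE 0.12, adjusted p = 0.0186). The call of Hnf4a was lost with a surrogate variable in the fit (adjusted p = 0.0923). Leaving out any single mouse changed none of the 5 calls.

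The other 4 members did not pass. Onecut1 lay at 2.60, 5.39 and 12.2 CPM in Ov Intact and at 5.45, 8.95 and 16.5 CPM in Ov GDX mice, a log2 fold change of 0.58 with a 95% interval of -0.06 to 1.22 (adjusted p = 0.101). Its mice spread widely in both groups, and the interval reaches past 1 on the log2 scale. Cebpa, at 181, 249 and 376 CPM against 220, 282 and 315 CPM, had a log2 fold change of 0.12 (adjusted p = 0.196). Cebpb, at 18.5, 23.7 and 30.9 CPM against 18.6, 27.9 and 40.1 CPM, had one of 0.21 (adjusted p = 0.0937). For these 3 genes the call turned on single mice. Without XY Ov Intact replicate 2 Onecut1 was called (adjusted p = 0.0466), without XX Ov Intact replicate 3 Cebpa was called (adjusted p = 0.0483), and without XY Ov GDX replicate 1 or XX Ov Intact replicate 5 Cebpb was called (lowest adjusted p = 0.0380). Nr5a2, the activator of bile acid genes, lay at 59.3, 82.0 and 92.8 CPM in Ov Intact and at 69.3, 79.2 and 87.3 CPM in Ov GDX mice. Its log2 fold change of -0.02 had the narrowest interval of the 9, from -0.17 to 0.13 (adjusted p = 0.814).

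Markers of other cells were also called in this comparison, where 69.1% of all tested genes were called. Of 8 stellate cell markers 4 were higher and 1 lower after ovariectomy (median log2 fold change 0.90, summed level 280 to 502 CPM in Ov Intact and 306 to 696 CPM in Ov GDX mice). Of 6 tested neutrophil markers 3 were lower and 1 higher, with a summed level of 4.11 to 806 CPM in Ov Intact and 2.44 to 60.0 CPM in Ov GDX mice, and their defining marker Ly6g had no read in 33 of the 47 mice. Of 5 tested duct markers 3 were higher (summed 11.7 to 54.7 against 20.3 to 142 CPM). Most of the duct sum is Spp1, with a median of 27.2 CPM over all 47 mice against 32.1 CPM for the sum. Of the 14 hepatocyte markers 4 were higher and 5 lower, and their summed level overlapped at 81591 to 152920 and 82678 to 116360 CPM. Of 8 macrophage markers 3 were lower and 1 higher, of 7 lymphocyte markers 4 were lower, of 6 tested endothelial markers 1 was higher and 1 lower, and the 1 tested pancreatic marker, Cela1, was lower. The part of these cells in the member differences was not tested.

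**Figure D2:**
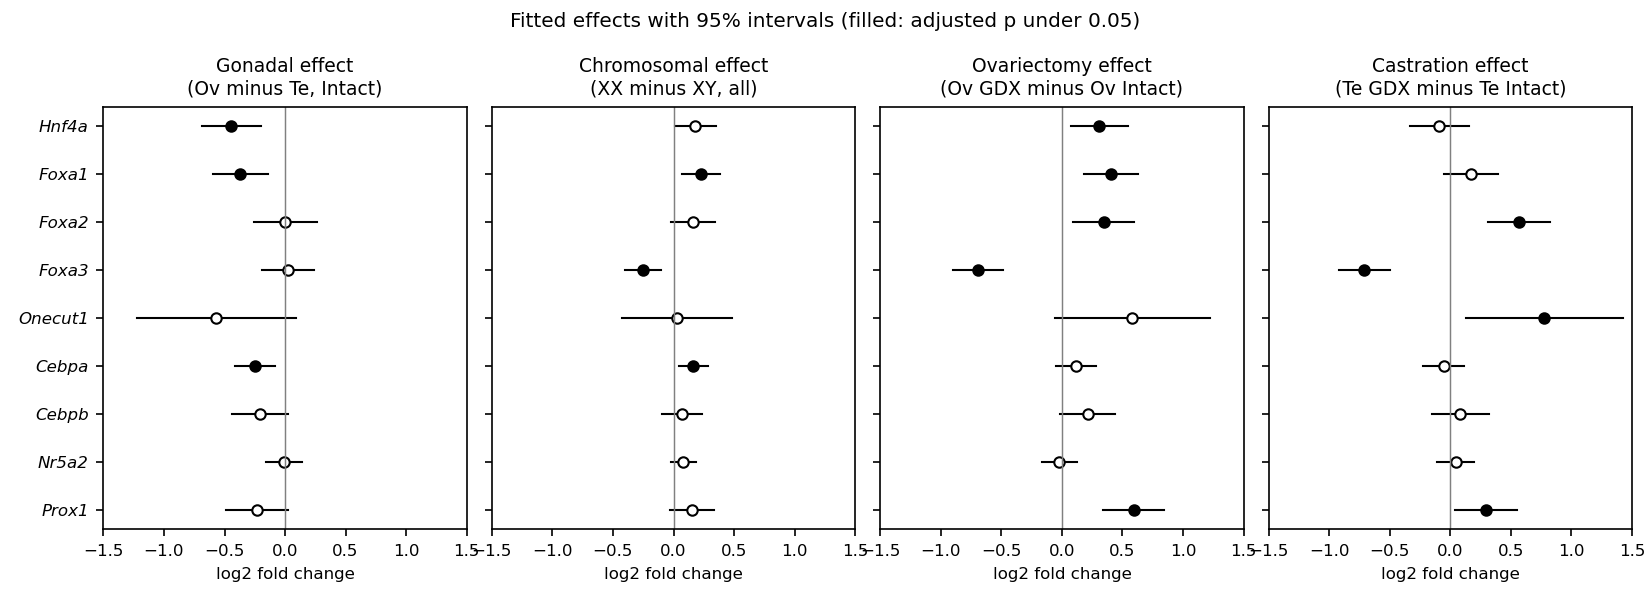
log2 fold changes of the 9 members (points, bars 95% intervals) for the gonadal, chromosomal, ovariectomy and castration effects, filled where the adjusted p is under 0.05. Foxa3 is the member called lower after both operations (0.618 and 0.611 of the Intact level), with Foxa2 and Prox1 called higher after both. The Prox1 call after castration was lost in several alternative fits.

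The castration effect (12 Te GDX minus 11 Te Intact) asks the same question of testes. Of the 9 members 4 were called, Foxa2, Onecut1 and Prox1 higher and Foxa3 lower, where 61.1% of all tested genes were called (31.8% higher and 29.3% lower). The members' median log2 fold change was 0.08 and that of all tested genes 0.06.

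Foxa3 lay at 22.6, 34.3 and 75.7 CPM in Te Intact and at 17.8, 22.4 and 27.3 CPM in Te GDX mice. Of the 11 Intact mice 10 were above every GDX mouse, and the fitted level after castration was 0.611 of that in Intact mice (log2 SE 0.11, adjusted p = 4.29e-07). Foxa2 lay at 12.2, 15.7 and 32.2 CPM in Te Intact and at 19.5, 25.8 and 37.2 CPM in Te GDX mice. Of the 11 Intact mice 9 were below every GDX mouse, the remaining ones being the 2 that stood apart from their groups. Its log2 fold change was 0.57 (SE 0.13, adjusted p = 0.000233). Neither forkhead call changed when any single mouse was left out.

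Onecut1 had the largest difference and the widest error of the castration comparison. It lay at 4.04, 8.12 and 18.45 CPM in Te Intact and at 5.17, 13.3 and 44.2 CPM in Te GDX mice. Above every Intact mouse were 5 GDX mice, and 1 Intact mouse was below every GDX mouse (log2 fold change 0.77, SE 0.32, adjusted p = 0.0353). The call was lost in 9 of the 47 fits that left out 1 mouse, namely XX Te Intact replicates 2, 3 and 4, XY Te Intact replicates 1, 3 and 6, XX Te GDX replicate 6 and XY Te GDX replicates 2 and 3 (highest adjusted p = 0.159). It was also lost with hepatocyte marker scaling (adjusted p = 0.0728), with no filter beyond 1 count (0.0898), in the compared groups alone (0.0583) and with 1 surrogate variable (0.0748). Prox1 lay at 107, 156 and 254 CPM in Te Intact and at 151, 201 and 231 CPM in Te GDX mice, and the highest mouse was an Intact one. Its log2 fold change of 0.29 was just inside the threshold (SE 0.13, adjusted p = 0.04525). The Prox1 call was lost with hepatocyte marker scaling (adjusted p = 0.278), with 1 surrogate variable (0.195) and with no filter beyond 1 count (0.0841). With all 48 mice Prox1 was not called (adjusted p = 0.0523), nor in 14 of the 47 fits without 1 mouse (highest adjusted p = 0.09945). These were the fits without XX Te Intact replicates 2, 4 and 6, XY Te Intact replicates 1, 2, 3 and 6, XX Te GDX replicates 1, 2, 3 and 5 and XY Te GDX replicates 3, 5 and 6.

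The remaining 5 members overlapped widely after castration. Hnf4a lay at 359, 534 and 659 CPM in Te Intact and at 353, 482 and 625 CPM in Te GDX mice (log2 fold change -0.09, 95% interval -0.33 to 0.15, adjusted p = 0.520). Foxa1 lay at 12.3, 16.8 and 22.5 CPM and at 10.9, 19.7 and 27.4 CPM (log2 fold change 0.17, 95% interval -0.06 to 0.40, adjusted p = 0.188). Both genes thus missed the threshold here and passed it after ovariectomy, a contrast that is tested below. For Cebpa (250, 315 and 373 against 230, 296 and 350 CPM) the log2 fold change was -0.06 (adjusted p = 0.566). For Cebpb (17.8, 25.6 and 37.05 against 21.3, 28.6 and 38.0 CPM) it was 0.08 (adjusted p = 0.555). Nr5a2 lay at 59.0, 79.1 and 95.4 CPM in Te Intact and 73.7, 79.9 and 99.9 CPM in Te GDX mice (log2 fold change 0.04, 95% interval -0.11 to 0.19, adjusted p = 0.630). With libraries scaled to their totals, where the median of all genes was 0.26, Foxa1 (0.36, adjusted p = 0.0173) and Nr5a2 (0.24, adjusted p = 0.0248) were called higher.

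Among the marker lists after castration, 7 of 14 hepatocyte markers were higher and 3 lower, where 61.1% of all tested genes were called. Of 8 stellate markers 4 were higher (summed 244 to 418 CPM in Te Intact and 219 to 597 CPM in Te GDX mice). Of 6 tested neutrophil markers 2 were lower and 1 higher (median log2 fold change -1.72, summed 2.48 to 124 against 2.72 to 118 CPM). Of 5 tested duct markers 2 were higher and 1 lower (summed 9.65 to 126 against 23.7 to 140 CPM), and of 8 macrophage markers 2 were higher and 1 lower (summed 248 to 820 against 164 to 1369 CPM). Of 6 tested endothelial markers 2 were higher and 1 lower, of 7 lymphocyte markers 1 was higher, and Cela1 was lower. Their part in the member values was not tested.

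Taken genotype by genotype, Foxa3 was called lower after gonadectomy in all 4. Of the 15575 tested genes 4426 were called lower in XX Ov, 4516 in XY Ov, 2508 in XX Te and 4444 in XY Te mice. How many were called lower in all 4 is not given here. In XX Ov mice Foxa3 lay at 29.6, 34.3 and 51.8 CPM in Intact and 17.5, 19.9 and 24.1 CPM in GDX mice (log2 fold change -0.86, adjusted p = 9.42e-06). In XY Ov mice it lay at 29.8, 32.9 and 46.1 CPM against 20.5, 25.1 and 27.2 CPM (log2 fold change -0.53, adjusted p = 0.00223). In XY Te mice it lay at 34.3, 40.1 and 75.7 CPM against 19.9, 23.1 and 27.3 CPM (log2 fold change -0.96, adjusted p = 1.33e-06). In these 3 genotypes all 6 Intact mice were above all 6 GDX mice. The share of all tested genes that separate so is not given here. The 5 XX Te Intact mice had 22.6, 27.3, 28.8, 29.5 and 32.9 CPM, against 17.8, 20.3 and 23.6 CPM (lowest, median, highest of 6) in XX Te GDX mice. There 4 Intact mice were above every GDX mouse, and the log2 fold change of -0.45 was the smallest of the 4 (adjusted p = 0.0215, and 0.0728 without XX Te Intact replicate 4).

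Other members were called in fewer genotypes, with 5 or 6 mice a group. Prox1 was higher after gonadectomy in XX Ov (log2 fold change 0.59, adjusted p = 0.00502) and XY Ov mice (0.60, adjusted p = 0.00390). Foxa1 was higher in XY Ov mice (log2 fold change 0.47, adjusted p = 0.00935), with 5 of 6 GDX mice above every Intact mouse. Foxa2 was higher in XX Te mice (log2 fold change 0.74, adjusted p = 0.00320), from 15.1, 15.7, 15.7, 17.0 and 27.2 CPM in the 5 Intact mice to 24.97, 31.1 and 37.2 CPM in the GDX mice. That call was lost with hepatocyte marker scaling (log2 fold change 0.46, adjusted p = 0.0765). In XY Te mice Foxa2 had a log2 fold change of 0.40 (adjusted p = 0.05265). It was called there in 11 of the 47 fits without 1 mouse, at 0.66 without XY Te Intact replicate 4 (adjusted p = 0.000623), and also with all 48 mice (adjusted p = 0.0487), by DESeq2 (adjusted p = 0.0417), with other scalings of the libraries and with at least 10 counts in every mouse. The mice whose absence gave the call were XX Ov Intact replicates 1, 2 and 6, XY Ov Intact replicates 1, 5 and 6, XX Te Intact replicate 1, XY Te Intact replicate 4, XY Ov GDX replicates 2 and 5 and XY Te GDX replicate 4. In XY Te mice Foxa2 was not called with 1 surrogate variable (0.29, adjusted p = 0.237), in the compared groups alone (0.0922) or with no filter beyond 1 count (0.0755). Among other settings, Prox1 was called higher in XX Te mice in the compared groups alone (adjusted p = 0.0360). It was also called there with 1 surrogate variable (0.0451) and with at least 10 counts in every mouse (0.0498). The fit without 1 mouse that had the highest log2 fold change called Prox1 (0.0341), and likewise Foxa1 (0.0474), in XX Te mice. Not every call under another setting is listed here. With 1 surrogate variable Hnf4a was called lower in XY Te mice (-0.45, adjusted p = 0.0220). In the main fit the count was 2 of 9 members in XX Ov, 3 in XY Ov, 2 in XX Te and 1 in XY Te mice, where 54.7%, 59%, 31.5% and 56.4% of all tested genes were called.

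**Figure D3:**
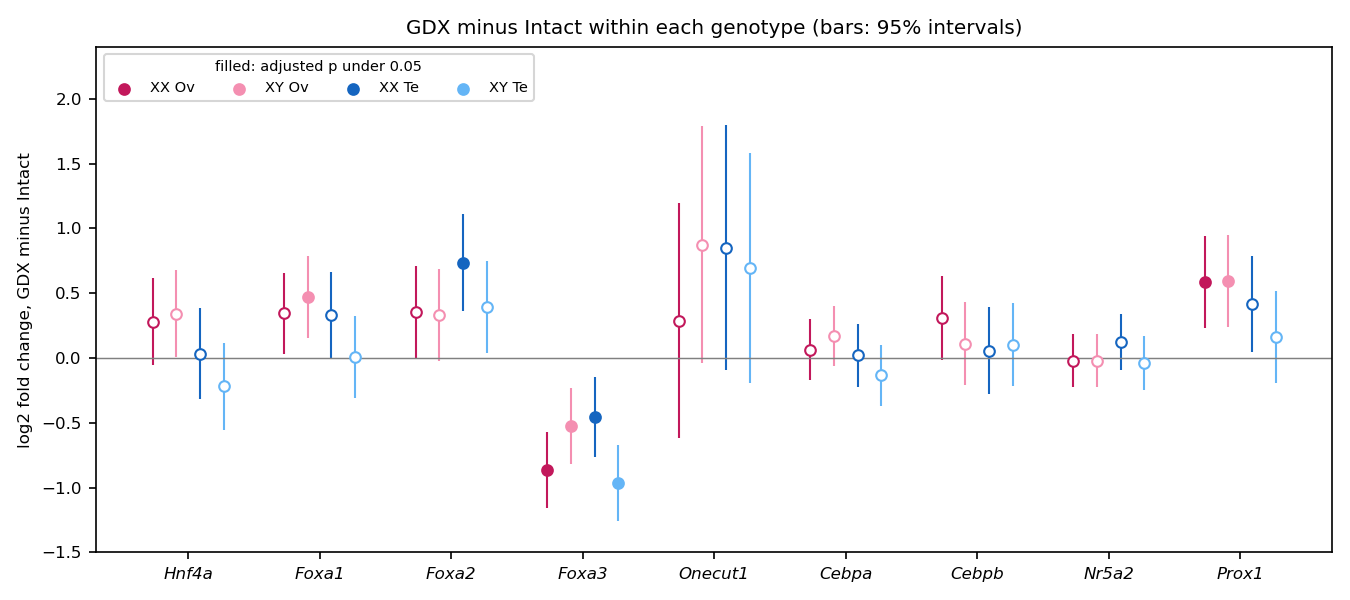
log2 fold change of each member after gonadectomy (GDX minus Intact) within each of the 4 genotypes, filled where the adjusted p is under 0.05, with 95% intervals as bars. Foxa3 is below 0 and called in all 4 genotypes, from -0.45 in XX Te to -0.96 in XY Te mice. The share of all tested genes called lower in all 4 is not given here.

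Whether castration and ovariectomy differed in effect was tested as the difference of the 2 effects. None of the 9 members passed in edgeR's quasi-likelihood test, nor with DESeq2, while 5.26% of all tested genes did. Hnf4a alone had an unadjusted p under 0.05, its castration effect being lower than its ovariectomy effect by 0.40 on the log2 scale (adjusted p = 0.144). With libraries scaled to the 14 hepatocyte markers instead of TMM, Hnf4a and Cebpa were called. The share of all tested genes called under that scaling is not given here. In the main fit the median difference was 0.27 over those markers and 0.04 over all tested genes, so that scaling moves every gene. For Foxa3 the difference was -0.01 (adjusted p = 0.960). Of 25 other liver regulators listed, 3 passed in this test, Nr0b2 (SHP, a corepressor induced by bile acids), Hhex and Rxrb. The castration effect on Nr0b2 was lower than the ovariectomy effect by 1.26 on the log2 scale (adjusted p = 0.0253).

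After gonadectomy, former Ov and former Te mice (12 each) were compared directly. No member passed in edgeR's quasi-likelihood test or with DESeq2, against 0.0899% of all tested genes. Only Onecut1 had an unadjusted p under 0.05, with a log2 fold change of -0.76 (former Ov minus former Te, unadjusted p = 0.0191). It lay at 5.45, 8.95 and 16.5 CPM in Ov GDX and 5.17, 13.3 and 44.2 CPM in Te GDX mice, whose ranges overlap. Without XX Te GDX replicate 6 the log2 fold change was -0.48 (unadjusted p = 0.114).

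The gonadal effect (12 Ov Intact minus 11 Te Intact mice) compares ovaries with testes while gonads are present. Of the 9 members 3 were called, Hnf4a, Foxa1 and Cebpa, all lower with ovaries. Of all tested genes 24.9% were called, 13.6% higher and 11.3% lower. The members' median log2 fold change was -0.23 and that of all tested genes 0.04.

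Hnf4a lay at 231, 350 and 573 CPM in Ov Intact and at 359, 534 and 659 CPM in Te Intact mice. Of the 12 Ov mice 6 were below every Te mouse, and 3 Te mice were above every Ov mouse (log2 fold change -0.44, SE 0.12, adjusted p = 0.00678). Foxa1 lay at 8.82, 13.7 and 20.0 CPM in Ov Intact and at 12.3, 16.8 and 22.5 CPM in Te Intact mice, with 5 Ov mice below every Te mouse (log2 fold change -0.37, SE 0.11, adjusted p = 0.01535). Cebpa lay at 181, 249 and 376 CPM in Ov Intact and at 250, 315 and 373 CPM in Te Intact mice. Again 6 Ov mice were below every Te mouse, but 1 Ov mouse was above every Te mouse (log2 fold change -0.25, SE 0.08, adjusted p = 0.0274). All 3 calls were lost in a fit of the Intact groups alone. There the log2 fold changes were -0.47, -0.39 and -0.27 for Hnf4a, Foxa1 and Cebpa and the adjusted p-values 0.0655, 0.0611 and 0.114. The Cebpa call was also lost without XY Te Intact replicate 5 or XX Te Intact replicate 6 (highest adjusted p = 0.0645).

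The other members overlapped between ovaries and testes. Onecut1, at medians of 5.39 and 8.12 CPM, had a log2 fold change of -0.57 with a 95% interval of -1.23 to 0.09 (adjusted p = 0.191). Prox1 had one of -0.23 (adjusted p = 0.167) and Cebpb one of -0.21 (adjusted p = 0.1805). For Foxa2 (0.00), Foxa3 (0.02) and Nr5a2 (-0.01) the log2 fold changes were near 0, with 95% intervals of -0.26 to 0.26, -0.19 to 0.24 and -0.16 to 0.14. Beside these values, 4 of 7 lymphocyte, 2 of 8 macrophage, 4 of 14 hepatocyte, 1 of 8 stellate and 1 of 6 tested endothelial markers were higher with ovaries and none of these lists had a lower one. Of all tested genes 13.6% were higher and 11.3% lower. Of 5 tested duct markers 1 was lower, Cela1 was lower, and 0 of 6 neutrophil markers were called. The summed lymphocyte level was 3.60 to 23.8 CPM in Ov Intact and 1.52 to 9.46 CPM in Te Intact mice, and the macrophage level 331 to 1119 and 248 to 820 CPM. Their part in the member values was not tested.

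The gonadal effect was also taken within each chromosome complement. In XX mice (6 Ov and 5 Te) none of the 9 members was called in edgeR's quasi-likelihood test or with DESeq2, and 4.65% of all tested genes were. Foxa3 was the 1 member that had an unadjusted p under 0.05 there, with a log2 fold change of 0.42 (adjusted p = 0.103). In XY mice (6 Ov and 6 Te) Hnf4a (log2 fold change -0.62, adjusted p = 0.00902), Foxa1 (-0.47, adjusted p = 0.0353) and Cebpa (-0.36, adjusted p = 0.0303) were lower with ovaries, where 15.1% of all tested genes were called. Hnf4a medians there were 329 CPM in XY Ov and 521 CPM in XY Te mice, with 3 Ov mice below every Te mouse. Foxa1 lost its call without any 1 of XY Ov Intact replicates 4, 5 and 6 and XY Te Intact replicates 4 and 5, and Cebpa without any 1 of XY Ov Intact replicates 5 and 6 and XY Te Intact replicates 4 and 5. Foxa3 had a log2 fold change of -0.37 in XY mice (adjusted p = 0.0788), opposite in sign to that in XX mice.

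The test of that difference, the interaction of gonad and chromosomes in Intact mice, gave no call among the members or among any tested gene (0%) in edgeR's quasi-likelihood test. By DESeq2 4 genes were called, none of them a member, and 1091 genes had an unadjusted p under 0.05 in edgeR. Foxa3 was the 1 member among these, with an interaction of 0.78 on the log2 scale (SE 0.21, unadjusted p = 0.000579, adjusted p = 0.328). Its Intact medians were 34.3 CPM in XX Ov, 32.9 in XY Ov, 28.8 in XX Te and 40.1 in XY Te mice.

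The chromosomal effect (23 XX minus 24 XY mice, over both gonads and both statuses) compares the sex chromosome complements. Of the 9 members 3 were called, Foxa1 and Cebpa higher and Foxa3 lower in XX mice, where 36.3% of all tested genes were called (21.7% higher and 14.5% lower). The fitted XX level was 1.17 times the XY level for Foxa1, 1.12 times for Cebpa and 0.842 times for Foxa3. The median log2 fold change was 0.15 over the members and 0.05 over all tested genes.

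Foxa3 lay at 17.5, 23.8 and 51.8 CPM in XX and at 19.9, 28.6 and 75.7 CPM in XY mice. Of the 23 XX mice 6 were below every XY mouse (log2 fold change -0.25, SE 0.07, adjusted p = 0.00671), and the call held whichever mouse was left out. Foxa1 lay at 9.72, 17.8 and 27.4 CPM in XX and at 8.82, 15.8 and 22.2 CPM in XY mice (log2 fold change 0.23, SE 0.08, adjusted p = 0.01975). Above every XY mouse were 3 XX mice. Cebpa lay at 237, 296 and 376 CPM in XX and at 181, 263 and 373 CPM in XY mice, with 4 XY mice below every XX mouse (log2 fold change 0.16, SE 0.06, adjusted p = 0.0246). The Foxa1 and Cebpa calls turned on single mice. Leaving out any 1 of XX Ov Intact replicate 2, XY Ov Intact replicates 5 and 6 and XY Te Intact replicates 1, 2, 3 and 6 ended both, and XX Ov Intact replicates 1 and 6 and XY Te Intact replicate 4 ended that of Cebpa (highest adjusted p 0.09305 for Foxa1 and 0.148 for Cebpa). Both were also lost when libraries were scaled to their totals or to the hepatocyte markers, and when the filter on low counts was dropped.

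For the other 6 members the log2 fold changes were 0.18 for Hnf4a, 0.16 for Foxa2, 0.15 for Prox1, 0.08 for Nr5a2, 0.07 for Cebpb and 0.03 for Onecut1. Hnf4a missed the threshold (adjusted p = 0.09355) and passed it without XX Te Intact replicate 2 or XY Ov Intact replicate 1 (lowest adjusted p = 0.0365) and with 1 surrogate variable (log2 fold change 0.19, adjusted p = 0.0320). Without XY Ov Intact replicate 5 its log2 fold change was 0.11. Immune cell markers differed between the same mice: 6 of 6 tested neutrophil, 7 of 8 macrophage and 5 of 7 lymphocyte markers were lower in XX mice. Of all tested genes 21.7% were higher and 14.5% lower there. Summed levels were 2.44 to 36.3 CPM in XX and 6.93 to 806 CPM in XY mice for neutrophils, 164 to 820 and 331 to 1369 CPM for macrophages, and 1.52 to 14.2 and 2.46 to 23.8 CPM for lymphocytes. Of the other lists 4 of 14 hepatocyte, 2 of 5 tested duct and 2 of 8 stellate markers were higher in XX mice, 1 of 6 tested endothelial markers was lower, and Cela1 was not called. Their part in the member values was not tested.

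Within Intact mice alone no member had a chromosomal effect in edgeR's quasi-likelihood test, where 10.5% of all tested genes were called. Foxa3 had an unadjusted p under 0.05 there (log2 fold change -0.29, adjusted p = 0.0675) and was the 1 member called by DESeq2. Within GDX mice Foxa1 was called (log2 fold change 0.28, adjusted p = 0.0450), where 34.2% of all tested genes were, and its call was lost in 24 of the 47 fits without 1 mouse (highest adjusted p = 0.158). The XX GDX mice lay at 16.5, 19.9 and 27.4 CPM of Foxa1 and the XY GDX mice at 10.9, 17.0 and 20.1 CPM. In GDX mice Foxa3 had a log2 fold change of -0.205 (adjusted p = 0.124), with 6 of 12 XX mice below every XY mouse. The interaction of chromosomes with gonadectomy called no member by edgeR or DESeq2, none had an unadjusted p under 0.05, and 2.83% of all tested genes were called.

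Because all 3 forkhead genes were counted in the same library, their ratio needs no scaling between libraries. The log2 ratio of Foxa2 to Foxa3 reads was -1.01 ± 0.55 (SD, n = 23) in Intact and 0.17 ± 0.39 (n = 24) in GDX mice. By group it was -0.96, -1.04, -0.66 and -1.32 in XX Ov, XY Ov, XX Te and XY Te Intact mice and 0.26, -0.18, 0.56 and 0.06 in the GDX mice of those genotypes. The ratio of Prox1 to Hnf4a reads was -1.58 ± 0.25 on the log2 scale in Intact and -1.25 ± 0.15 in GDX mice. That of Cebpb to Cebpa moved less, from -3.45 ± 0.39 to -3.34 ± 0.32. These ratios were chosen after the values were seen and are given without a test.

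**Figure D4:**
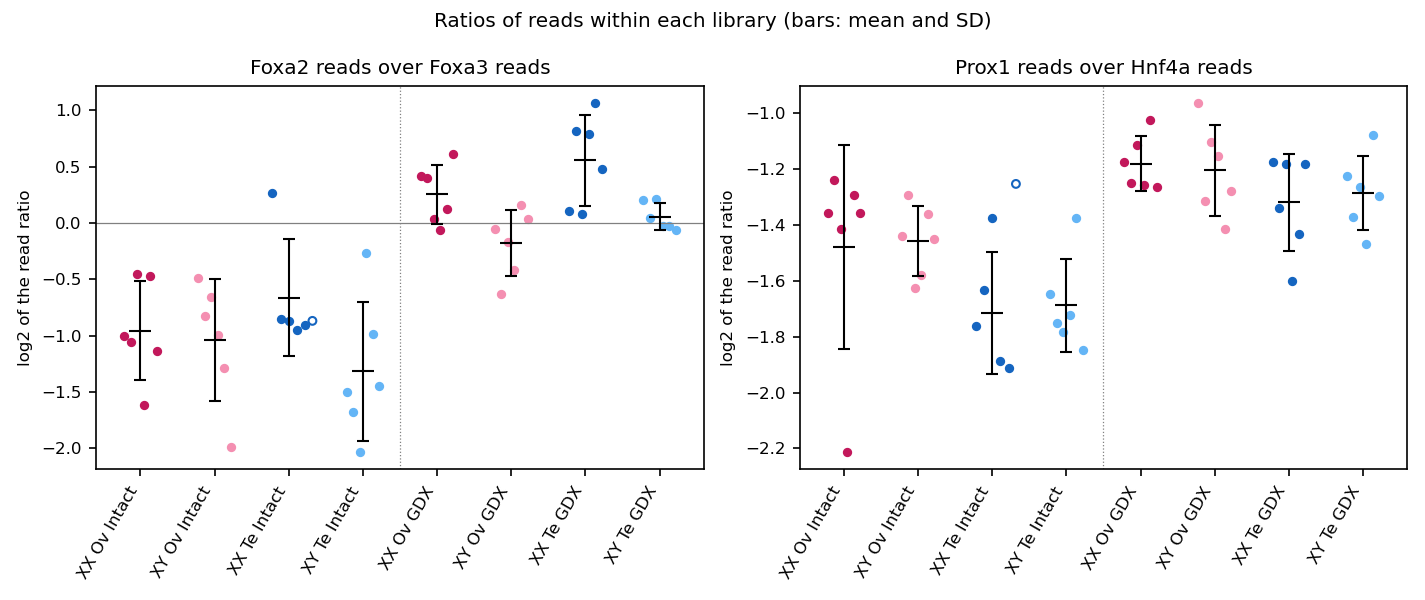
log2 ratio of reads within each library for Foxa2 over Foxa3 (left) and Prox1 over Hnf4a (right), 1 point per mouse with mean and SD, by group. The Foxa2 over Foxa3 ratio averages -1.01 in Intact and 0.17 in GDX mice, and the ranges overlap: the highest values of the Intact groups are -0.45 in XX Ov, -0.49 in XY Ov, 0.27 in XX Te and -0.27 in XY Te, where GDX mice span -0.63 to 1.06.

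Across the 8 group means of log2(CPM + 1), Pearson's r was 0.94 between Hnf4a and Cebpa, 0.89 between Hnf4a and Foxa1, 0.86 between Foxa1 and Prox1, and 0.85 between Foxa1 and Cebpa and between Foxa2 and Prox1. Foxa3 had a negative r to all 8 other members, from -0.07 to Nr5a2 to -0.85 to Foxa2. These are descriptions over 8 points that share the Intact against GDX difference. Of 12183 genes compared, those closest in profile to Hnf4a were Dyrk2 and Gmps (r = 0.99 each), to Foxa3 Gm826 and Rspo3 (0.99 each), to Foxa2 Tmem25 and 1190005F20Rik (0.99 each) and to Prox1 Stard13 and Supt7l (0.99 each). For Cebpa they were Gtf2h4 and Nsun2 (0.99 each), for Foxa1 Mon1a (0.99) and Ddx51 (0.98), and for Onecut1 Fbxl6 (0.99) and 2410002I01Rik (0.97). Cebpb had Tmem101 (0.97) and Daglb (0.95), and Nr5a2, whose means hardly vary, had Mkrn2 (0.93) and Mettl8 (0.92).

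Around the members, 25 other regulators of the hepatocyte were listed, among them the GATA and NFI factors and the receptors for bile acids and fatty acids. After ovariectomy 16 were higher and 5 lower (median log2 fold change 0.31), where 35.9% of all tested genes were higher and 33.2% lower (median 0.06). Nr0b2 was higher (1.13, adjusted p = 0.000119), and the lowest were Hhex (-0.74, adjusted p = 1.41e-06), a homeobox gene of early liver, and the stress factor Atf5 (-0.53, adjusted p = 7.81e-06). After castration 9 were higher and 4 lower (median 0.08), beside 31.8% and 29.3% of all tested genes (median 0.06). The highest was Ppargc1a (0.61, adjusted p = 8.14e-06), the coactivator of gluconeogenesis, and the lowest were Atf5 (-0.53, adjusted p = 1.95e-05) and Nr2f2 (-0.19, adjusted p = 0.0205). Between gonads none was higher and 5 were lower with ovaries (median -0.11), beside 13.6% and 11.3% of all tested genes (median 0.04), with Nr0b2 (-1.24, adjusted p = 0.000414) lowest. Between chromosome complements 9 were higher and none lower in XX mice (median 0.14), beside 21.7% and 14.5% of all tested genes (median 0.05), from Nr2f6 (0.14, adjusted p = 0.0373) and Gata6 (0.20, adjusted p = 0.0173) up to Ppara (0.39, adjusted p = 0.000563), the fatty acid receptor.

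Of 24 textbook target genes, 8 were higher and 7 lower after ovariectomy (median log2 fold change 0.13), and 15 of 24 is no larger than the 69.1% of all tested genes called. The highest were the apolipoprotein genes Apoa4 (log2 fold change 1.25, adjusted p = 0.00166) and Apob (1.23, adjusted p = 9.545e-10), and the lowest Apoc3 (-1.16, adjusted p = 9.86e-08) and Hamp (-1.09, adjusted p = 0.00562), which encodes hepcidin. After castration 7 were higher and 8 lower (median -0.14), near the 61.1% called among all tested genes, with Cyp7a1 (0.93, adjusted p = 0.00177), the rate-limiting enzyme of bile acid synthesis, and the clotting factor gene F7 (0.72, adjusted p = 4.02e-08) highest. Cyp8b1, the sterol 12-hydroxylase (-0.90, adjusted p = 0.00116), and Ttr (-0.84, adjusted p = 5.585e-08), which encodes transthyretin, were lowest. Between gonads 2 were higher with ovaries, Cyp7a1 (1.71, adjusted p = 3.28e-06) and F7 (0.31, adjusted p = 0.0143), and 4 lower, Cyp8b1 (-0.86, adjusted p = 0.00680) and Apob (-0.55, adjusted p = 0.00400) most, where 24.9% of all tested genes were called (list median -0.07). Between chromosome complements 11 were higher and none lower in XX mice (median 0.16), beside 21.7% and 14.5% of all tested genes, from Scarb1 (0.15, adjusted p = 0.0151) and Proc (0.15, adjusted p = 0.0194) up to Cyp8b1 (0.90, adjusted p = 2.29e-05) and Apoa4 (1.84, adjusted p = 9.35e-08).

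**Figure D5:**
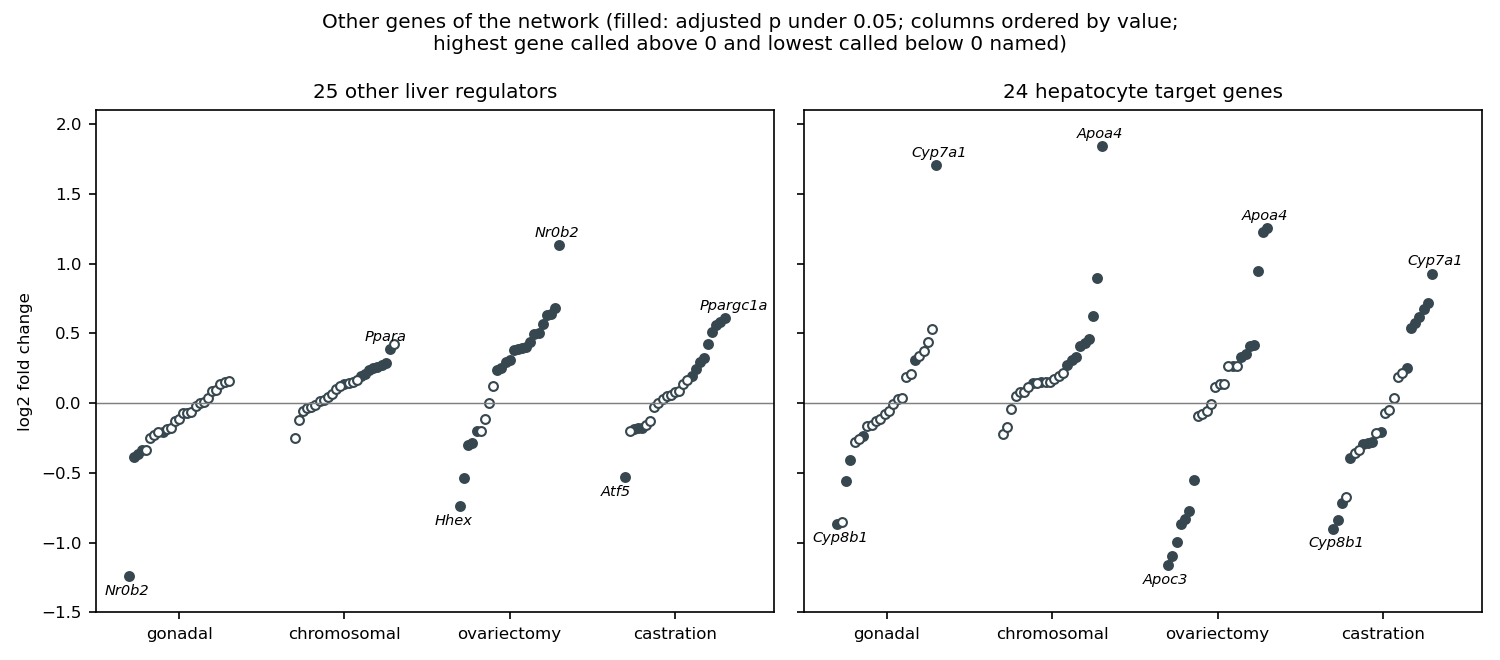
log2 fold changes of the 25 other liver regulators (left) and 24 hepatocyte target genes (right) in 4 comparisons, ordered by value within each column, filled where the adjusted p is under 0.05. Of the regulators 16 are called higher after ovariectomy and 9 after castration, and in the chromosomal column no gene of either list is called lower in XX mice.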

How the data were processed

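Livers were snap-frozen, RNA was isolated with trizol and libraries were made with the KAPA mRNA HyperPrep kit. The authors deposited whole-number read counts per gene, not normalized, for 55414 Ensembl genes and 48 mice, from reads aligned with STAR 2.7.10a to GRCm39 per the labels. The strand setting and the annotation release are not given in the sources used here, so reads of Hnf4a and Hnf4aos (1.69 to 16.9 CPM), and of Prox1 and Prox1os (2.35 to 7.63 CPM), cannot be told apart. The 4 summary lines of unassigned reads stayed out of library sizes. In a library, 3 reads correspond to 0.150 to 0.230 CPM.

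Counts were fitted with edgeR 4.0.16 in R 4.3.3 (TMM scaling, filterByExpr, robust quasi-likelihood fit, 1 mean per group for 8 groups). P-values were adjusted by Benjamini and Hochberg over 15575 genes, with 0.05 as threshold. The 47 mice are those whose single values the study plotted, and replicate 5 of XX Te Intact was the other. The procedure was tested on simulated counts with few changed genes, as many raised as lowered. That test does not show how the procedure behaves where most genes are called, as after both operations here. The alternatives were DESeq2 1.42.0 (Wald test), its size factors in edgeR, library totals, scaling to the geometric mean of 14 hepatocyte markers, other filters on counts, all 48 mice, the compared groups alone, 1 surrogate variable (sva 3.50.0), a fold change above 1.5, unadjusted p, and each mouse left out. Exon lengths came from GENCODE vM1 models on the NCBIM37 build, for per-kilobase levels only, with all 9 members matched by identifier, and promoters from RefSeq GRCm38.p6. No coordinates were carried between builds.

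The members and all gene lists (25 other regulators, 24 targets, markers of 8 cell types) were chosen with earlier results of these data known. Named genes were all members, the 2 highest and 2 lowest called genes of the regulator and target lists in each of the 4 main comparisons, and for each member the 2 genes with the highest Pearson correlation over the 8 group means among genes with a mean of at least 1 CPM. Some genes that this rule names are not reported here.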

Additional observations from a re-analysis of the deposited data

Results flagged for a closer look

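In 5 of the 72 combinations of member and group, 1 mouse stood far above the rest of its group by Dixon's criterion at the 95% level, where chance flags about 1 in 20. Foxa2 was at 27.16 CPM in XX Te Intact replicate 1, against 15.1 to 17.0 CPM in the other 4 mice. Foxa2 was at 32.17 CPM in XY Te Intact replicate 4, against 12.2 to 18.5 CPM in the other 5, and Foxa3 was at 75.68 CPM in replicate 3 of that group, against 34.3 to 47.8 CPM. Onecut1 was at 16.48 CPM in XX Ov GDX replicate 6, against 5.45 to 9.16 CPM, and at 44.2 CPM in XX Te GDX replicate 6, against 5.17 to 19.4 CPM. Leaving out any 1 of the mice that carry the Foxa2 and Foxa3 values changed neither call in the castration effect, whereas leaving out XX Te GDX replicate 6 ended the Onecut1 call, as leaving out 8 other mice did.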

How the results depend on the processing

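Over the 4 main comparisons, each with 12 or 13 alternative values per member, 406 values stayed on their side of the threshold, 37 lost a call, 16 gained one and 0 reversed a call. Some of the 406 could not change: a called member always passes at an unadjusted p, and one not called never passes with the fold change added. The fits without 1 mouse enter only with their lowest and highest log2 fold change. Signs of members that were not called did change. With library totals Hnf4a and Cebpa turned positive after castration, and Onecut1, Cebpb and Nr5a2 turned negative between chromosome complements. With hepatocyte marker scaling Onecut1, Cebpb and Nr5a2 turned negative between chromosome complements too. The same scaling turned Cebpb and Nr5a2 negative after castration and Foxa2 and Foxa3 negative between gonads. Some changes of sign under other settings are not listed. The number of members called in the gonadal effect went from 3 to 1 with library totals, to 0 in a fit of the compared groups alone and to 0 with a fold change above 1.5. In the chromosomal effect it went from 3 to 1 with library totals, with hepatocyte marker scaling and with no filter beyond 1 count, and to 0 above 1.5-fold. In the ovariectomy effect it went from 5 to 8 with library totals and to 2 above 1.5-fold, and in the castration effect from 4 to 6 with library totals (Foxa1 and Nr5a2 added) and to 2 with hepatocyte marker scaling, with no filter, above 1.5-fold and with 1 surrogate variable. The difference between castration and ovariectomy went from 0 to 2 members with hepatocyte marker scaling and to 1 at an unadjusted p, and the former gonad effect and the interaction of gonad and chromosomes each went from 0 to 1 at an unadjusted p. The shares of all tested genes called under these settings are not given here, so the changed counts are not a result about the members. Except where fewer mice or another threshold makes the difference by construction, the cause was not tested.

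Without single mice in turn the number called was 2 to 3 for the gonadal, 1 to 4 for the chromosomal, 5 to 6 for the ovariectomy and 2 to 4 for the castration effect, and 0 to 0 for the former gonad effect, the castration minus ovariectomy difference and both interactions. No paired analysis was possible because the labels give no replicate numbers shared between groups.

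Scaling moved all genes together. The median log2 fold change of all tested genes after ovariectomy was 0.06 with TMM, 0.27 with library totals and 0.20 with hepatocyte marker scaling, and 0.06, 0.26 and -0.04 after castration. Relative to these medians Foxa3 was at -0.76, -0.74 and -0.74 after ovariectomy and at -0.77, -0.75 and -0.75 after castration. Of the genes called, 52.0%, 66.2% and 62.0% were higher after ovariectomy under the 3 scalings, 52.1%, 69.2% and 36.5% after castration, 54.5%, 66.6% and 19.0% between gonads and 59.9%, 28.9% and 34.2% between chromosome complements. Depth limits Onecut1 most, with as few as 46 reads in a mouse, where Hnf4a had at least 3367.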
